A study of Mus musculus with 69 samples.

Results

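The genes described here are 36 gene symbols of glycolysis and the response to low oxygen in mouse macrophages. They were taken as a named list, by symbol, from the deposited gene table, by a rule that reads no measured value, although the list was drawn up with earlier results of these data known. The 36 symbols matched 37 of the 56980 gene identifiers in the table, since Aldoa stands there under 2 identifiers, of which the other was at 0 in 68 of 69 libraries. A total of 35 identifiers, 22 of glycolysis and 13 of the hypoxia response, passed the filter on low counts and were tested among 12008 genes. The gene Egln3 did not pass the filter and is described by its values alone.

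The cells were macrophages derived from the bone marrow of wild-type mice, grown from marrow in M-CSF (macrophage colony-stimulating factor, 50 ng/mL), harvested on day 7, frozen and thawed before editing. Each replicate was a pool of 6 mice, and all cells, controls included, had received Cas9 ribonucleoprotein, the Cas9 nuclease bound to a guide RNA. Control cells had a guide to Rosa26, a locus whose disruption cells tolerate. The other guides cut 1 of 6 genes of the lysosome and its signalling. These are Atp6v1a (a catalytic subunit of the proton pump that acidifies lysosomes), Npc1 (which moves cholesterol out of lysosomes), Pik3c3 (the lipid kinase Vps34), Ctsd (the protease cathepsin D), Grn (progranulin) and Trem2 (a lipid-sensing surface receptor). RNA was taken at day 4 or day 13 after editing, as the series design gives it, whereas the sample labels give the same numbers as hours. The 14 groups hold 5 libraries each except Npc1 at day 4, with 4 libraries. The edited cells are unselected pools and not clones, and the oxygen and glucose of the cultures were not varied between groups as far as the labels say.

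Glycolysis turns glucose into pyruvate in the cytosol. Glucose enters macrophages mainly through the transporter Slc2a1 (GLUT1), is trapped by hexokinases, is split by aldolase into triose phosphates, and yields ATP at the steps of phosphoglycerate kinase and pyruvate kinase. Pyruvate is either burnt in mitochondria or reduced by lactate dehydrogenase to lactate, which leaves through monocarboxylate transporters. The hypoxia-inducible factor, a dimer of Hif1a with Arnt, switches on most genes of this pathway. The Hif1a protein is marked for destruction by the oxygen-dependent prolyl hydroxylases Egln1 and Egln3, so that its activity is set at the level of protein and need not follow its message. In macrophages the same factor is also active after inflammatory stimulation, when glycolysis carries much of the energy supply.

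The factor binds the core letters ACGTG or GCGTG. Both were searched on both strands of the promoters that RefSeq's table (build GRCm38.p6, 250 bases before to 50 after each start) lists for the members. The table holds 57 promoters for 35 of the 36 members, and 46 of them (80.7%) held at least 1 core. Of the 11457 promoters of tested genes 62.2% did, and of all 32851 promoters 43.8%. The core ACGTG was in 54.4% of the members' promoters and in 25.7% of those of tested genes, and GCGTG in 57.9% and 50.6%. The palindrome CACGTG, which contains ACGTG on each strand and is also the letters of an E-box, was in 12.3% and 10%. These are matches of letters in a window, not measured binding.

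The promoters of 6 members that changed in several groups are shown, for each gene the listed promoter with the most cores, with each core in capitals; CACGT and CACGC are the cores read on the other strand. Each CACGTG counts as 2 cores, 1 on each strand, although it is 1 stretch of capitals. Ldha (lactate dehydrogenase A) held 7 cores, including 2 copies of CACGTG. The genes Pgam1 (phosphoglycerate mutase), Ak4 (a mitochondrial adenylate kinase) and Hilpda (a lipid droplet protein that restrains lipolysis) held 3 each, of which 2 in Ak4 are those of 1 CACGTG. Slc16a3 (the lactate exporter MCT4) and Pgk1 (phosphoglycerate kinase) held 2 each. The other listed promoters of these genes held fewer, with 2 cores in that of Ldha, 2 in each of 3 of Ak4 and 1 in that of Hilpda.
Ldha, chr7:46845554-46845853, + strand: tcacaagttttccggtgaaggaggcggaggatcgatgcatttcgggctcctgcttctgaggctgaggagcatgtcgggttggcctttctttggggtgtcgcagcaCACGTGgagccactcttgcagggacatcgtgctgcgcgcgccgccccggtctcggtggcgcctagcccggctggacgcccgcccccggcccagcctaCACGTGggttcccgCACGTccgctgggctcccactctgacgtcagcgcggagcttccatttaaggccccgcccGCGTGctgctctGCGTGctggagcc
Pgam1, chr19:41911621-41911920, + strand: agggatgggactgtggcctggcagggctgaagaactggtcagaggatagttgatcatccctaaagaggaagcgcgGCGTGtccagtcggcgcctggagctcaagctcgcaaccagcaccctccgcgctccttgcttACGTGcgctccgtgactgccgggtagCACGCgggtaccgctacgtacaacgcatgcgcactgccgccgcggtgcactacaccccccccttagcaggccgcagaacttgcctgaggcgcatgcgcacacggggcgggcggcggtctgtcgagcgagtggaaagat
Pgk1, chrX:106186850-106187149, + strand: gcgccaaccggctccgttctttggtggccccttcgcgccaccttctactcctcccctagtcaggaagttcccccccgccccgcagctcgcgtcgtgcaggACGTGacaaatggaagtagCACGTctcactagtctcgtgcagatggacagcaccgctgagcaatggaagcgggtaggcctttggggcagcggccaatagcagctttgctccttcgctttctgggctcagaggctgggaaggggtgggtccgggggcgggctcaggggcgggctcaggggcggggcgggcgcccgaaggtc
Slc16a3, chr11:120948817-120949116, + strand: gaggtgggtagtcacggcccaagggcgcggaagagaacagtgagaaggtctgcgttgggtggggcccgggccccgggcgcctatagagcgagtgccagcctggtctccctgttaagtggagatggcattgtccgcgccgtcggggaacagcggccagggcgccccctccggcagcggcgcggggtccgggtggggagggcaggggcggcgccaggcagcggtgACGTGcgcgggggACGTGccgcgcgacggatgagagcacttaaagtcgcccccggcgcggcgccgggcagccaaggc
Ak4, chr4:101419453-101419752, + strand: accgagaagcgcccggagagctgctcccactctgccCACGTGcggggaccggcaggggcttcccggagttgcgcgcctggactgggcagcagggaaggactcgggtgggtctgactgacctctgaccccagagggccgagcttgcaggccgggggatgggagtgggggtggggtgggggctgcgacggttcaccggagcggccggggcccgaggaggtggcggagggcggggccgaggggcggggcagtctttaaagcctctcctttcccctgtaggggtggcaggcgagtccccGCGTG
Hilpda, chr6:29272376-29272675, + strand: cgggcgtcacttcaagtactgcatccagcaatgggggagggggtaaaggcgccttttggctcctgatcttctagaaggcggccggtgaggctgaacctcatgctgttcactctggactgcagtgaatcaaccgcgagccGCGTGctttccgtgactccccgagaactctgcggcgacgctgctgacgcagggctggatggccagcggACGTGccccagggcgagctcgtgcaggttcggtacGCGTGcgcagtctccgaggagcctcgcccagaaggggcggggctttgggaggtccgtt

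Libraries held 2194566 to 4688285 counts, with a median of 3404743. The targeted message stood at 17.2% to 73.5% of its Rosa26 level, and since 3′ tags can persist after small edits, these levels say little about how many cells were edited. A sum of 10 macrophage markers lay between 10890 and 26120 CPM (counts scaled to a common library size) in every library, the highest values being those of Trem2 at day 13. Sums of 9 neutrophil markers reached at most 37.6 CPM, of 8 lymphocyte markers 10.1, of 5 dendritic cell markers 4.87 and of 5 mast cell markers 0.667. The labels name 2 library protocols, and 8043 of 12008 genes (67%) differed between them. Among the members 22 were higher and 5 lower in the Low-input protocol, for example Ldha by 0.65 and Slc16a3 by 0.58 on the log2 scale. The single Low-input library of day 4 was Trem2 replicate 1. At day 13 all 5 Trem2 libraries were Low-input, as were 4 of Pik3c3, 3 each of Atp6v1a, Npc1 and Ctsd, 2 of Grn and only replicate 5 of Rosa26. The fit therefore carried a term for protocol, and the changes below (log2 fold changes ± SE) have the protocol difference removed. Levels in CPM are not adjusted for protocol. At day 13 they are given by protocol or in replicate order, where both protocols can stand in 1 list. Each p given is that of the quasi-likelihood test of edgeR after Benjamini-Hochberg adjustment across all tested genes, and called genes are those under 0.05. These p-values measure the spread between pooled cultures. The knockouts of a day share their Rosa26 libraries, so their changes are not independent of each other. In bulk RNA, fewer cells of a type and less RNA per cell cannot be told apart.

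In Rosa26 cells of day 4 the members ranged from 1.79 ± 0.541 CPM (mean ± SD, n = 5) for P4ha2, a subunit of the collagen prolyl hydroxylase, to 813 ± 76.1 CPM for Ldha. Each message gives tags from its 3′ end, so CPM was not divided by transcript length. For the enolase gene Eno1 the level is uncertain, because 86.6% of the counts shared with the near-identical Eno1b were assigned to Eno1b.

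Across the 12 comparisons of a knockout with Rosa26 cells of the same day, 94 calls fell on the 35 tested members, and 31 members were called at least once. The calls lay in 7 of the 12 comparisons, and 12 members were called higher in some knockouts and lower in others. In these 7 comparisons 4.46% to 25.2% of all tested genes were called, as given with each below. How many of all genes were called at least once or in both directions was not counted. The 31 and 12 members therefore have no background beside them. At day 4 no member passed in the Atp6v1a, Npc1, Pik3c3 or Ctsd knockouts by edgeR or by DESeq2, where 0.00833%, 0.00833%, 0.175% (0.0583% lower) and 0.125% (0.075% lower) of all genes did. An unadjusted p under 0.05 was found for 0, 2, 2 and 1 members in these 4 comparisons. At day 13 no member passed in Ctsd cells by either tool (5 with an unadjusted p under 0.05), where 0.2% of all genes passed.

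**Figure D1:**
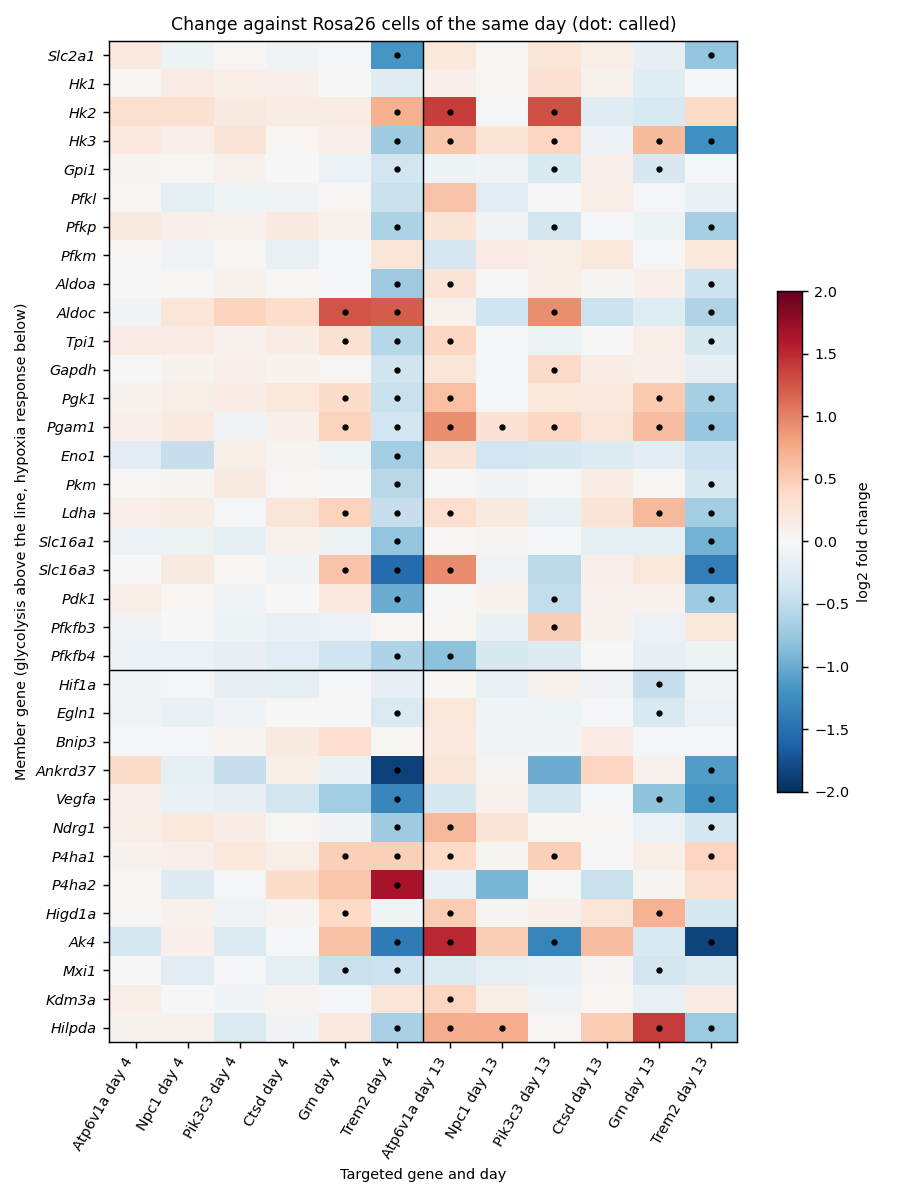
Heat map of the log2 change of the 35 tested members (rows, by role) in the 12 comparisons of a knockout with Rosa26 cells of the same day (columns); dots mark adjusted p under 0.05. The Trem2 columns are mostly blue (23 members lower at day 4 and 18 at day 13), the Atp6v1a column of day 13 mostly red (14 higher), and 4 of the day 4 columns hold no dot.

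In Trem2 knockout cells of day 4 most steps of glycolysis were lower, from the glucose transporter to the lactate exporter. Of the 35 tested members 27 were called, 4 higher and 23 lower, whereas 24.3% of all tested genes were called (11.4% higher and 12.9% lower). The median change of the members was -0.45 against 0.00 for all genes. All 5 lower-glycolysis members and all 3 members of the lactate group were called lower, as were 4 of the 7 of upper glycolysis, with 1 called higher.

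At glucose entry, Slc2a1 stood at 35.2, 44.7, 43.1, 41.5 and 41.7 CPM in Rosa26 replicates 1 to 5 of day 4 and at 14.7, 18.4, 23.1, 15.8 and 25.9 CPM in Trem2 replicates 1 to 5 (-1.18 ± 0.14, adjusted p = 5.95e-10). Each Trem2 library was below every Rosa26 library. The aldolase Aldoa (ENSMUSG00000030695.17), which splits the sugar bisphosphate, was at 552, 515, 608, 547 and 541 CPM in Rosa26 and 350.4, 302, 335, 376 and 391 CPM in Trem2 libraries (-0.72 ± 0.08, adjusted p = 1.76e-11). The triose phosphate isomerase Tpi1 was at 167, 175, 187, 185 and 180.4 against 155, 118, 118, 134 and 125 CPM (-0.57 ± 0.09, adjusted p = 3.28e-07). Neither gene's groups overlapped. Pfkp, the platelet-type phosphofructokinase, changed by -0.64 ± 0.12, and its paralogs Pfkl (-0.45 ± 0.23, adjusted p = 0.163) and Pfkm (0.24 ± 0.27, adjusted p = 0.563) were not called.

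At the end of the pathway, the pyruvate kinase Pkm stood at 498, 475, 500.4, 473 and 492 CPM in Rosa26 libraries and at 387, 314, 343, 377 and 347 CPM in Trem2 libraries of day 4 (-0.56 ± 0.09, adjusted p = 3.92e-07). The lactate exporter Slc16a3 was at 18.2, 23.5, 30.7, 20.9 and 21.5 CPM against 10.03, 5.58, 8.60, 8.91 and 11.5 CPM, or 34.3% of its Rosa26 level in the fit (-1.54 ± 0.20, adjusted p = 2.43e-09). Its groups did not overlap. Ldha, the enzyme that makes lactate, changed by -0.45 ± 0.10, adjusted p = 0.000244. Pdk1, the kinase that closes the mitochondrial route for pyruvate, was at 63.95, 82.7, 67.2, 70.7 and 69.7 CPM against 45.01, 30.5, 36.8, 40.9 and 39.8 CPM (-0.99 ± 0.13, adjusted p = 2.78e-09), again without overlap. Gpi1, Pgk1, Pgam1, Gapdh and Eno1 changed by -0.39, -0.45, -0.38, -0.40 and -0.68, in this order, all called. Slc16a1, another monocarboxylate transporter, changed by -0.79 (adjusted p = 0.00959) and Pfkfb4 by -0.615 (adjusted p = 0.000666). With no protocol term Gpi1, Pgk1, Ldha and the hydroxylase subunit P4ha1 missed the threshold (adjusted p = 0.188, 0.131, 0.29 and 0.204). With the counts of Eno1b added, Eno1 changed by -0.60 (adjusted p = 5.36e-08).

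Of the other hypoxia targets 6 of 11 were called lower and 2 higher at day 4 of the Trem2 knockout. Ndrg1, a stress-response gene, was at 83.6, 94.2, 87.2, 93.3 and 99.01 CPM in Rosa26 and 46.3, 55.8, 53.3, 56.7 and 74.02 CPM in Trem2 libraries (-0.71 ± 0.11, adjusted p = 5.54e-07), with every Trem2 library the lower. The larger falls were of Ankrd37, which encodes an ankyrin-repeat protein (-1.87 ± 0.35, adjusted p = 2.68e-05), Ak4 (-1.41 ± 0.32, adjusted p = 0.000497) and Vegfa, the vascular growth factor (-1.30 ± 0.31, adjusted p = 0.000782). Hilpda fell by 0.65 (adjusted p = 0.00601). The Myc antagonist Mxi1 (-0.43 ± 0.13, adjusted p = 0.00901) missed the threshold without Rosa26 replicate 1 or Trem2 replicate 1, with an adjusted p of at most 0.0802. Egln1, the main oxygen sensor, passed at 0.0426 (-0.28 ± 0.11) and missed without any of 8 of the 10 libraries (adjusted p up to 0.164). The message of Hif1a itself (-0.17 ± 0.10, adjusted p = 0.211), of the mitophagy receptor Bnip3 (0.03 ± 0.12, adjusted p = 0.878) and of the respiratory chain factor Higd1a (-0.08 ± 0.13, adjusted p = 0.704) did not pass.

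The 4 members that were higher in Trem2 cells of day 4 were Hk2, P4ha1, P4ha2 and Aldoc. Hk2, the inducible hexokinase, was at 22.6, 26.00, 26.1, 17.5 and 20.7 CPM in Trem2 libraries against 11.5 to 16.3 in Rosa26 libraries (0.71 ± 0.18, adjusted p = 0.00132), while the myeloid hexokinase Hk3 was lower (-0.71 ± 0.15, adjusted p = 0.000128). The collagen hydroxylase subunit P4ha2 was at 1.17, 1.34, 2.38, 1.76 and 2.28 CPM in Rosa26 and 9.60, 3.61, 6.19, 6.93 and 5.57 CPM in Trem2 libraries (1.65 ± 0.31, adjusted p = 2e-05), a low level that rests on few counts. Its sister subunit P4ha1 changed by 0.48 ± 0.11.

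The brain-enriched aldolase Aldoc stood at 36.7, 33.4, 30.1, 31.4 and 37.5 CPM in Rosa26 libraries, 35.6, 73.2, 95.3, 73.9 and 99.9 CPM in Trem2 libraries and 73.8, 83.7, 71.95, 87.6 and 83.6 CPM in Grn libraries of day 4. All Grn and 4 Trem2 libraries lay above every Rosa26 library, and the Low-input Trem2 replicate 1 lay among them. For Aldoc the difference of the Low-input protocol was -0.61 on the log2 scale. With it removed, Trem2 replicate 1 was at a log2 CPM of 5.71, above the 4.92 to 5.27 of the Rosa26 libraries. The changes were 1.21 ± 0.18 in Trem2 (adjusted p = 9.73e-08) and 1.26 ± 0.18 in Grn cells (adjusted p = 7.2e-07). Messages on the marker lists of other cell types differed between the same groups, and which cells they came from was not tested. The summed level of 28 brain markers averaged 159 CPM in Rosa26, 336 in Grn and 429 in Trem2 libraries of day 4. Among the Trem2 libraries it was 142 CPM in the Low-input replicate 1 and 437 to 599.7 CPM in the Regular ones. In this group the sum and the protocol thus moved together. All 28 brain markers had a count in some library of each of these groups. Sums of 6 erythroid markers averaged 2.71 CPM in Rosa26, 15.3 in Grn and 19.9 in Trem2 cells, and sums of 6 stromal markers 8.41, 19.9 and 24.3 CPM. With the sum of brain markers as a covariate, Aldoc changed by 0.24 in Trem2 cells of day 4 (adjusted p = 0.364) and by 0.59 in Grn cells (adjusted p = 0.00803). With that covariate Pgam1, Ak4, Hilpda, Pgk1, Ldha and Egln1 also missed the threshold in Trem2 cells of day 4 (adjusted p from 0.0671 to 0.405), and the other 20 calls held. The part of these other messages in the results was not tested beyond this.

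**Figure D2:**
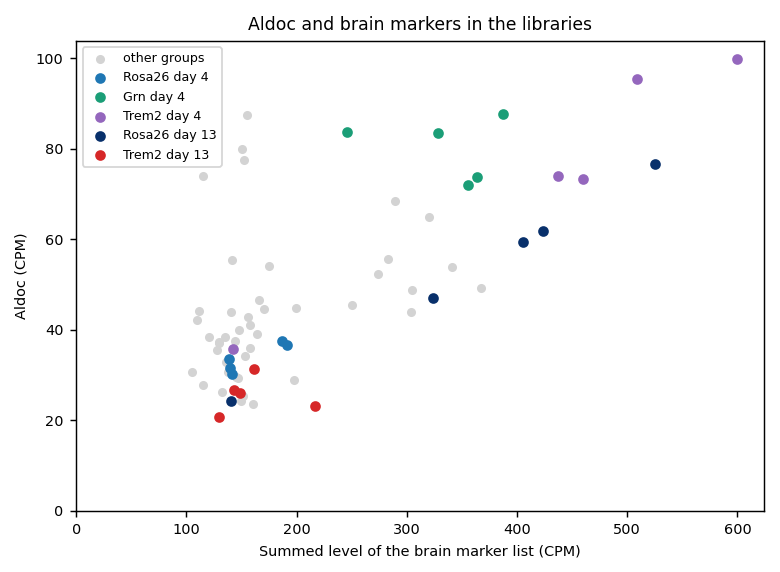
Level of Aldoc (CPM, vertical axis) against the summed level of 28 brain markers (CPM, horizontal axis) in each of the 69 libraries, by group. Neither axis has the protocol difference removed, which for Aldoc was -0.61 in Low-input libraries on the log2 scale. The 4 Regular Trem2 libraries of day 4 lie farthest right with 3 of the Rosa26 libraries of day 13 (405 to 599.7 CPM of brain markers), libraries of several groups, Grn at day 4 among them, lie between 245.6 and 387 CPM, the Low-input Rosa26 library of day 13 has 140.4 CPM, and the Low-input Trem2 library of day 4, with 142 CPM of brain markers, has 35.6 CPM of Aldoc.

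At day 13 most of the called members were again lower in the Trem2 knockout. Of the 35 members 19 were called, 1 higher and 18 lower, where 22.2% of all tested genes were called and 10.9% were lower. The median change was -0.33, against 0.00 for all genes. All Trem2 libraries of this day were Low-input, so levels are set beside the 16 Low-input libraries of the other groups of day 13. Of these only 1 was Rosa26 and the rest were other knockouts. The changes and tests are against Rosa26 and rest on the protocol term.

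Of the 5 lower-glycolysis members 3 were called lower, as were all 3 of the lactate group. Eno1 alone did not pass (-0.418, adjusted p = 0.068), and with the counts of Eno1b added it changed by -0.285 (adjusted p = 0.0205). Pgam1 was at 251, 288, 289, 298 and 286 CPM in Trem2 replicates 1 to 5, and at 505 to 1000.1 CPM in the other Low-input libraries (-0.76 ± 0.09, adjusted p = 9.51e-10). Pgk1 was at 314, 247, 256, 369 and 318 CPM, against 419.5 to 815 (-0.66 ± 0.12, adjusted p = 2.63e-05). Ldha was at 577, 495, 563, 673 and 670.4 CPM, against 838 to 1430.5 (-0.69 ± 0.11, adjusted p = 6.53e-07). In none of these genes did a Trem2 library reach the lowest of the other Low-input libraries. The Low-input Rosa26 library was at 505 CPM for Pgam1, 531 for Pgk1 and 1081 for Ldha. Slc16a3 was at 8.01, 8.22, 8.24, 13.1 and 14.97 CPM, against 16.5 to 59.5 (-1.38 ± 0.21, adjusted p = 3.09e-07), and the other monocarboxylate transporter, Slc16a1, changed by -0.94 ± 0.25, adjusted p = 0.00311. The latter was -0.72 (adjusted p = 0.104) without Rosa26 replicates 2 and 5, which stand apart in stromal markers. Without these 2 libraries Hilpda was -0.59 (adjusted p = 0.109), Pkm -0.32 (adjusted p = 0.0513) and Ndrg1 -0.40 (adjusted p = 0.056).

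At glucose entry of the day 13 Trem2 cells, Slc2a1 was at 23.1, 23.6, 27.3, 37.9 and 31.9 CPM, against 46.7 to 67.2 in the other Low-input libraries (-0.79 ± 0.15, adjusted p = 2.47e-05). Hk3 was at 25.96, 19.6, 23.6, 25.1 and 28.8 CPM, against 32.5 to 119 (-1.23 ± 0.16, adjusted p = 2.74e-09). Both sets of Trem2 libraries lay below all the others. Pdk1 was at 41.3, 36.8, 46.4, 62.6 and 54.5 CPM, against 57.1 to 103 (-0.73 ± 0.14, adjusted p = 2.54e-05), and Pfkp at 35.6, 35.7, 40.4, 46.7 and 51.4 CPM, against 44.3 to 92.4 (-0.67 ± 0.12, adjusted p = 2.84e-05), each with some overlap. Among hypoxia targets, Ak4 was at 0.961, 0.714, 0.749, 0.854 and 1.13 CPM, a few counts per library, against 1.13 to 11.99 (-1.86 ± 0.37, adjusted p = 9.09e-05). Hilpda changed by -0.75 ± 0.20, adjusted p = 0.00441 and Vegfa by -1.19 ± 0.29, adjusted p = 0.00104. Aldoa (-0.42 ± 0.09, adjusted p = 0.000113) and Pkm (-0.35 ± 0.10, adjusted p = 0.00425) were also lower, whereas Gapdh (-0.17 ± 0.11, adjusted p = 0.29), Gpi1 (-0.04 ± 0.09, adjusted p = 0.794) and Hk2 (0.38 ± 0.18, adjusted p = 0.128) did not pass.

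Several of the weaker Trem2 calls of day 13 turned on single libraries. Tpi1 (-0.31 ± 0.10, adjusted p = 0.0118) missed without Rosa26 replicate 4 (adjusted p = 0.0572). Ankrd37 (-1.12 ± 0.39, adjusted p = 0.0282) missed without any of 5 libraries, up to 0.14, and Ndrg1 (-0.33 ± 0.12, adjusted p = 0.0455) without any of 7, up to 0.178. Aldoc, the member higher at day 4, was lower at day 13 (-0.60 ± 0.21, adjusted p = 0.0301), missed without any of 5 libraries (up to 0.107), and was 0.10 (adjusted p = 0.85) in Low-input libraries alone, which include 1 Rosa26 library. The single member called higher was P4ha1 (0.43 ± 0.12, adjusted p = 0.00447), whose change was -0.08 (adjusted p = 0.73) with no protocol term. Without that term Ldha was -0.21 (adjusted p = 0.336), Pgk1 -0.29 (0.121), Pkm -0.04 (0.804) and Tpi1 0.01 (0.981), in the last of which the direction turned. Pdk1 was then -0.41 (adjusted p = 0.028) and Aldoa -0.22 (adjusted p = 0.0486). With the brain-marker covariate Ndrg1 was -0.27 (adjusted p = 0.085) and Aldoc -0.39 (adjusted p = 0.0617). Brain markers summed to 160 CPM in Trem2 and 364 CPM in Rosa26 cells of this day, stromal markers to 34.5 and 93.1 CPM, and macrophage markers to 24880 and 15180 CPM, and the part of the macrophage markers in the results was not tested. These means mix protocols. In Low-input libraries brain markers were at 129.7 to 216.8 CPM in Trem2 cells and at 140.4 CPM in the Rosa26 library.

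The effect of the Trem2 knockout differed between days for 3 members, all more negative at day 13. Of all genes 7.95% differed (4% more positive and 3.96% more negative), so the share of members was near the background. Aldoc differed by -1.81 ± 0.27, adjusted p = 3.32e-06, and by -0.64 (adjusted p = 0.0929) with the brain-marker covariate. Pgam1 differed by -0.38 ± 0.12, adjusted p = 0.0387 and missed without Rosa26 day 4 replicate 5, Trem2 day 4 replicate 3 or Trem2 day 13 replicate 1 (up to 0.0681). P4ha2 differed by -1.33 ± 0.43, adjusted p = 0.0387 and missed without any of 11 of the 20 libraries (up to 0.0802). Without Trem2 day 13 replicate 3 the count was 5, and without Rosa26 day 13 replicates 2 and 5 it was 1. With no protocol term Pgam1 (-0.25, adjusted p = 0.2) and P4ha2 (-1.06, adjusted p = 0.105) also missed, and P4ha2 did so with the brain-marker covariate (adjusted p = 0.113).

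**Figure D3:**
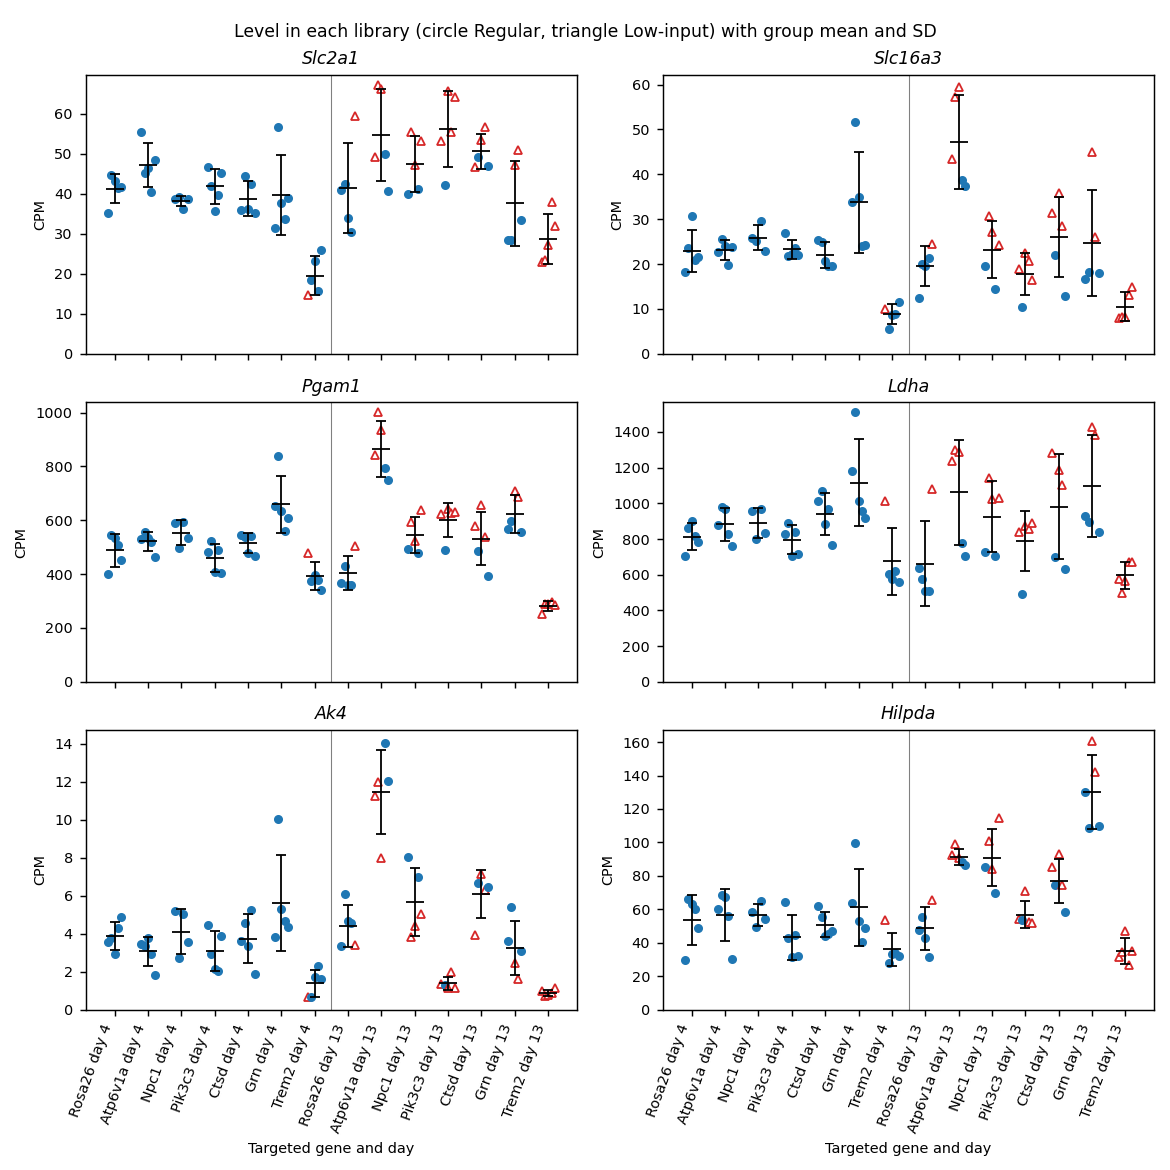
Levels (CPM) of Slc2a1, Slc16a3, Pgam1, Ldha, Ak4 and Hilpda in every library of the 14 groups; circles are Regular and triangles Low-input libraries. Slc16a3 lies between 5.58 and 11.5 CPM in all Trem2 libraries of day 4, and Pgam1 between 747 and 1000.1 CPM in the Atp6v1a libraries of day 13.

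In Atp6v1a knockout cells of day 13 most of the called members were higher. Of the 35 members 15 were called, 14 higher and 1 lower, where 24.4% of all tested genes were called (12.8% higher and 11.6% lower). The median change was 0.25, against 0.00 for all genes. At day 4 none had passed, and the effect differed between days for 7 members (6 more positive and 1 more negative), where 11.4% of all genes differed (5.56% more positive and 5.81% more negative). Marker sums of other cell types differed too. The 28 brain markers averaged 196 CPM in Atp6v1a (110.0 to 320.4) and 364 CPM in Rosa26 libraries (140.3 to 525), and all 15 calls held with the brain-marker covariate. In Low-input libraries these markers were at 110 to 165.5 CPM in Atp6v1a and 140 CPM in Rosa26 cells. In Regular libraries they were at 274 and 320 CPM against 324 to 525 CPM. The 6 stromal markers averaged 10.2 CPM (4.07 to 19.4) against 93.1 CPM (22 to 299), and the 9 neutrophil markers 10.3 CPM (8.01 to 15.7) against 2.81 CPM (1.33 to 5.47), with Elane, Ly6g and Retnlg at 0 in both groups. The part of the neutrophil markers in the results was not tested.

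Pgam1 was at 794 and 747 CPM in the 2 Regular Atp6v1a libraries, against 367, 428, 359 and 360.0 in the 4 Regular Rosa26 libraries. In Low-input libraries it was at 844, 1000.1 and 935 CPM, against 505 in the single Rosa26 library (0.93 ± 0.09, adjusted p = 6.14e-14). Every Atp6v1a library lay above every Rosa26 library of either protocol. Its effect differed between days by 0.83 ± 0.12, adjusted p = 2.9e-07. Among its neighbours in the pathway, Pgk1 changed by 0.61 ± 0.11, adjusted p = 2.28e-05, with 438 and 460.0 against 385, 305, 267 and 278 CPM in Regular and 815, 795 and 774 against 531 CPM in Low-input libraries. Tpi1 changed by 0.41 ± 0.09, adjusted p = 0.000224, with 193 and 188 against 145, 116, 120.3 and 161 CPM in Regular and 233, 282 and 267 against 195 CPM in Low-input libraries. Within each protocol the Atp6v1a libraries were the higher for both genes.

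At the entry to the pathway, Hk2 stood at 34.01, 68.3, 50.2, 78.1 and 64.6 CPM in Atp6v1a replicates 1 to 5 and at 21.8, 21.7, 25.3, 24.6 and 21.1 CPM in Rosa26 replicates 1 to 5 of day 13. All 5 Atp6v1a libraries were above all Rosa26 libraries (1.38 ± 0.16, adjusted p = 7.43e-11), with an effect 1.06 ± 0.24, adjusted p = 0.00101 above that of day 4. Hk3 changed by 0.55 ± 0.13, adjusted p = 0.00128, while the housekeeping hexokinase Hk1 (0.09 ± 0.14, adjusted p = 0.686) and the transporter Slc2a1 (0.20 ± 0.13, adjusted p = 0.271) did not pass. Pfkfb4, the enzyme that makes and breaks the activator of phosphofructokinase, was the only member called lower. It was at 12.6, 19.2, 19.8, 15.8 and 17.03 CPM in Atp6v1a and 27.2, 25.4, 20.7, 22.8 and 32.7 CPM in Rosa26 libraries (-0.82 ± 0.14, adjusted p = 6.34e-06), without overlap, and its effect differed between days by -0.71 ± 0.20, adjusted p = 0.0101, or -0.58 (adjusted p = 0.0984) with no protocol term. Its paralog Pfkfb3 was not called (0.05 ± 0.16, adjusted p = 0.875).

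The lactate exporter Slc16a3 was at 38.6 and 37.3 CPM in Regular Atp6v1a libraries, against 12.4, 20.1, 19.7 and 21.4 in Regular Rosa26 libraries. In Low-input libraries it was at 43.4, 57.2 and 59.5 CPM, against 24.6 (0.95 ± 0.17, adjusted p = 7.53e-06). All Atp6v1a libraries were higher, and the effect differed between days by 0.94 ± 0.24, adjusted p = 0.00361. That of Pgk1 differed by 0.54 ± 0.16, adjusted p = 0.0159. Ldha changed by 0.34 ± 0.10, adjusted p = 0.00749 and Aldoa by 0.25 ± 0.08, adjusted p = 0.0122. Aldoa missed without Atp6v1a replicate 2 (adjusted p = 0.0677) and, at 0.22, without Rosa26 replicates 2 and 5 (adjusted p = 0.0909). Gapdh (0.24 ± 0.10, adjusted p = 0.0802), Pkm (0.01 ± 0.09, adjusted p = 0.934) and Eno1 alone (0.26 ± 0.15, adjusted p = 0.224) did not pass, and Eno1 with the counts of Eno1b added changed by 0.39 (adjusted p = 0.000274).

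Of the 11 other hypoxia targets 6 were called higher in Atp6v1a cells of day 13. Ak4 was at 11.2, 11.99, 8.01, 14.05 and 12.02 CPM in Atp6v1a and 3.35, 6.09, 4.67, 4.56 and 3.40 CPM in Rosa26 libraries (1.51 ± 0.23, adjusted p = 4.07e-07), without overlap, and the effect differed between days by 1.84 ± 0.36, adjusted p = 0.000127. Ndrg1 was at 92.1, 129, 131, 119 and 128 CPM against 68.6, 74.6, 71.01, 71.5 and 69.3 CPM (0.65 ± 0.11, adjusted p = 3.36e-06), also without overlap. Its effect differed between days by 0.54 ± 0.15, adjusted p = 0.0117, which missed without Rosa26 day 13 replicate 5 (adjusted p = 0.05) and, at 0.48, without Rosa26 day 13 replicates 2 and 5 (adjusted p = 0.0616). The others were Hilpda (0.73 ± 0.18, adjusted p = 0.00117), Higd1a (0.50 ± 0.13, adjusted p = 0.00309), P4ha1 (0.39 ± 0.11, adjusted p = 0.00379) and the histone demethylase Kdm3a (0.44 ± 0.13, adjusted p = 0.00722). Higd1a was 0.43 (adjusted p = 0.0574) without Rosa26 replicates 2 and 5. P4ha1 was 0.18 (adjusted p = 0.475) with no protocol term and 0.20 (adjusted p = 0.605) in Low-input libraries alone. The oxygen sensor Egln3, a known target of the factor, was untested because of its low counts. It stood at 3.06 ± 0.76 CPM in Atp6v1a cells of day 13, from 2.09 to 4.01, and at 0.56 CPM in Rosa26 cells, and when no filter was applied its change was 2.18 ± 0.56 (adjusted p = 0.00307). Hif1a (0.05 ± 0.10, adjusted p = 0.778), Egln1 (0.22 ± 0.10, adjusted p = 0.102), Bnip3 (0.20 ± 0.12, adjusted p = 0.237) and Vegfa (-0.31 ± 0.25, adjusted p = 0.398) did not pass.

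**Figure D4:**
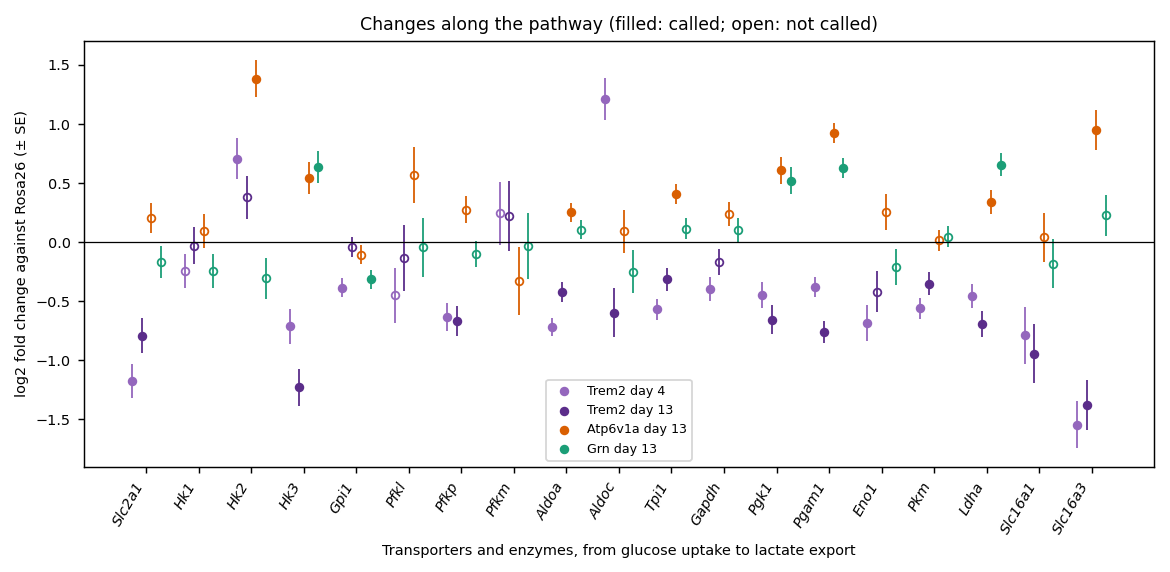
Log2 change (± SE) of 19 members in pathway order, from glucose uptake to lactate export (filled points called, open points not), in Trem2 cells of days 4 and 13 and in Atp6v1a and Grn cells of day 13. Trem2 points lie mostly below 0, with Slc16a3 at -1.54 and -1.38, and Atp6v1a points mostly above, with Hk2 at 1.38.

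The Pik3c3 knockout, of a kinase that also acts on endosomes and lysosomes, moved members in both directions at day 13. It called 11 of 35, with 7 higher and 4 lower, where 13.2% of all tested genes were called (7.11% higher and 6.1% lower). At day 4 it had called none. The median change was 0.01. Only Pik3c3 replicate 2 of day 13 was Regular, and without it 7 members were called. Brain markers averaged 172 CPM in Pik3c3 and 364 CPM in Rosa26 cells, stromal markers 15 and 93.1 CPM and neutrophil markers 11.1 and 2.81 CPM. In Low-input libraries brain markers were at 114.7 to 154.5 CPM in Pik3c3 and 140.4 CPM in Rosa26 cells. In Regular libraries they were at 289 CPM against 324 to 525 CPM. With the brain-marker covariate Pfkp missed (-0.30, adjusted p = 0.0881) and the other 10 calls held, and the part of the neutrophil markers was not tested.

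Hk2 stood at 38.01, 49.6, 52.5, 63.5 and 46.7 CPM in Pik3c3 replicates 1 to 5 of day 13, all above the Rosa26 libraries (1.28 ± 0.17, adjusted p = 7.55e-09), and its effect differed between days by 1.10 ± 0.25, adjusted p = 0.00174. Pgam1 was at 490.2 CPM in the Regular and 622, 643, 626 and 629.8 CPM in the Low-input Pik3c3 libraries (0.41 ± 0.09, adjusted p = 0.000385), above the Rosa26 libraries of the same protocol. Its effect differed between days by 0.48 ± 0.12, adjusted p = 0.00655. P4ha1 was at 58.97, 86.1, 64.1, 71.2 and 57.6 CPM, against 53.1, 71.3, 62.3, 70.01 and 49.04 CPM in Rosa26 cells (0.48 ± 0.11, adjusted p = 0.00107), or 0.11 (adjusted p = 0.666) with no protocol term. These raw levels overlap across protocols, and within each protocol the Pik3c3 libraries were the higher. Gapdh, the glyceraldehyde phosphate dehydrogenase, was at 448, 342, 639, 589 and 603 CPM against 309, 328, 308, 337 and 448 CPM (0.39 ± 0.11, adjusted p = 0.00611), with overlap in the Low-input libraries.

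Aldoc was at 77.4, 68.4, 79.99, 74.1 and 87.5 CPM in Pik3c3 cells of day 13 and 61.9, 46.9, 59.3, 76.6 and 24.3 CPM in Rosa26 cells (0.93 ± 0.19, adjusted p = 0.000128), with the last Rosa26 value from the Low-input library. The Regular values overlap, and without Rosa26 replicates 2 and 5 the change was 0.59 (adjusted p = 0.0541). It was 0.48 (adjusted p = 0.0893) with no protocol term, 0.17 (adjusted p = 0.76) in Regular and 1.78 (adjusted p = 2.24e-05) in Low-input libraries alone. Among the members called lower, Ak4 was at 1.37, 1.28, 1.15, 2.00 and 1.13 CPM, below all Rosa26 libraries (-1.33 ± 0.33, adjusted p = 0.00203). Pdk1 was at 59.1, 34.7, 57.1, 58.9 and 57.1 CPM against 66.7, 58.4, 51.01, 41.9 and 89.9 CPM (-0.49 ± 0.13, adjusted p = 0.00489), at -0.42 (adjusted p = 0.083) without Rosa26 replicates 2 and 5 and at -0.24 (adjusted p = 0.248) with no protocol term. Within each protocol the Pik3c3 libraries were the lower. Gpi1, the glucose phosphate isomerase, was at 182, 124, 222, 209 and 225 CPM against 156, 182, 173, 168 and 255 CPM (-0.30 ± 0.09, adjusted p = 0.0081), with the Pik3c3 libraries the lower within each protocol. It missed without Pik3c3 replicate 2 (adjusted p = 0.0596) and turned to 0.01 with no protocol term. Its effect differed between days by -0.39 ± 0.12, adjusted p = 0.0283, which missed without Pik3c3 day 4 replicate 5 or day 13 replicates 1 or 2 (up to 0.0786) and was -0.07 (adjusted p = 0.851) with no protocol term. Pfkfb3, Pfkp and Hk3 (0.49, -0.36 and 0.42) missed without any of 3, 5 and 6 libraries. The 3 members whose effect differed between days compare with 6.19% of all genes (3.61% more positive and 2.58% more negative), so their share was near the background.

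Set directly against each other at day 13, Atp6v1a and Pik3c3 cells differed in 18 of 35 members, 15 higher and 3 lower in Atp6v1a, where 18.5% of all genes differed. Ak4 differed most, by 2.84 ± 0.27, adjusted p = 3.94e-13, followed by Slc16a3 (1.47 ± 0.16, adjusted p = 7.21e-11) and Ankrd37 (1.24 ± 0.33, adjusted p = 0.00339). Pgam1 (0.51 ± 0.08, adjusted p = 2e-06) and Ndrg1 (0.61 ± 0.11, adjusted p = 1.2e-05) were also higher in Atp6v1a cells, and Aldoc (-0.84 ± 0.17, adjusted p = 0.000122), Pfkfb4 (-0.57 ± 0.14, adjusted p = 0.00181) and Pfkfb3 (-0.45 ± 0.15, adjusted p = 0.0228) lower. Pfkfb3 missed without Atp6v1a replicate 1 or Pik3c3 replicate 2 (up to 0.0925). With no protocol term Pdk1, Higd1a, Pgk1 and Ldha missed (adjusted p = 0.0589, 0.217, 0.162 and 0.149). For Hk2, called higher in both knockouts, the difference was 0.11 ± 0.14, adjusted p = 0.672.

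In Grn knockout cells of day 4, 9 of 35 members were called, 8 higher and 1 lower, where 8.04% of all tested genes were called (4.45% higher and 3.6% lower). The median change was 0.03. The members called higher were Aldoc, Tpi1, Pgk1, Pgam1, Ldha, Slc16a3, P4ha1 and Higd1a, that is 2 of 5 of lower glycolysis, 2 of 3 of the lactate group, 2 of 7 of upper glycolysis and 2 of 11 other hypoxia targets. Grn replicate 2 held the highest value of Pgam1, Ldha, Tpi1, Slc16a3 and Pgk1. Without it 5 members were called, and without Grn replicate 3 also 5. With the brain-marker covariate Tpi1 (adjusted p = 0.0527) and Slc16a3 (adjusted p = 0.105) missed. With no protocol term 3 passed, although all Grn and Rosa26 libraries of this day were Regular. The others kept their change, with Ldha at 0.47, P4ha1 0.47, Pgk1 0.37, Tpi1 0.30, Slc16a3 0.57 and Higd1a 0.40 (adjusted p from 0.144 to 0.233). The fit estimates spread over all groups, in which both protocols occur.

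Pgam1 stood at 653, 839, 635, 559 and 608 CPM in Grn replicates 1 to 5 and 399.6, 544, 534, 509 and 452 CPM in Rosa26 replicates of day 4 (0.44 ± 0.08, adjusted p = 0.000189). Ldha was at 1183, 1511, 1016, 955 and 916 CPM, against 704, 863, 901, 815 and 782 CPM (0.47 ± 0.10, adjusted p = 0.000858). For both genes each Grn library was above every Rosa26 library. P4ha1 was at 49.8, 56.4, 71.5, 62.4 and 46.3 CPM, against 46.8, 40.4, 41.5, 35.8 and 42.99 CPM (0.47 ± 0.11, adjusted p = 0.00288), with 1 Grn library within the Rosa26 range. Tpi1 was at 209, 265, 214, 212 and 197 CPM, against the Rosa26 range of 167 to 187 (0.30 ± 0.09, adjusted p = 0.0155), and missed without Grn replicate 2 (adjusted p = 0.0856). Slc16a3 was at 33.9, 51.6, 34.9, 24.04 and 24.3 CPM (0.57 ± 0.16, adjusted p = 0.0184) and Pgk1 at 544, 725, 573, 488 and 465 CPM (0.37 ± 0.11, adjusted p = 0.0254). Each of these 2 missed without any of 4 libraries, Grn replicates 2 and 3 among them, up to 0.197 and 0.13. The repressor Mxi1 was the member called lower, at 24.2, 20.1, 21.2, 23.3 and 25.7 CPM against 38.00, 29.7, 32.3, 26.9 and 29.6 CPM (-0.44 ± 0.13, adjusted p = 0.0218), without overlap. It missed without Rosa26 replicate 1 or Grn replicates 2 or 3 (up to 0.1). Higd1a (0.40 ± 0.13, adjusted p = 0.0433) missed without any of 7 libraries, up to 0.271.

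At day 13 the Grn knockout called 11 of 35 members, 6 higher and 5 lower, where 25.2% of all tested genes were called, so the share of members was near the background. The median change was -0.04. Hilpda was at 130.1, 108, 160.3, 142 and 109.6 CPM in Grn replicates 1 to 5 and 47.7, 55.6, 43.01, 31.4 and 65.6 CPM in Rosa26 replicates (1.40 ± 0.18, adjusted p = 3.82e-09). All Grn libraries were above all Rosa26 libraries, and the effect differed between days by 1.20 ± 0.25, adjusted p = 0.000459, or 0.67 (adjusted p = 0.244) with the brain-marker covariate. The summed brain markers averaged 125 CPM in Grn and 364 CPM in Rosa26 cells of day 13, and their part in the result was not tested beyond this. In Regular libraries these markers were at 105 to 127 CPM in Grn and 324 to 525 CPM in Rosa26 cells. In Low-input libraries they were at 141 and 134.6 CPM against 140.4 CPM.

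Pgam1 stood at 568, 597 and 555 CPM in Regular and 709 and 685 CPM in Low-input Grn libraries of day 13 (0.62 ± 0.08, adjusted p = 2.63e-08). Ldha was at 931, 897 and 839.6 and 1430.5 and 1383 CPM (0.66 ± 0.10, adjusted p = 4.1e-07), against 637, 575, 510.1 and 509 in Regular and 1081 in Low-input Rosa26 libraries. Higd1a was at 124, 114 and 118 and 193 and 182 CPM (0.70 ± 0.13, adjusted p = 3.54e-05), against 92.1, 76.8, 83.01 and 64.7 and 109.5. Within each protocol the Grn libraries were the higher for these 3 genes. Hk3 was at 53.7, 53.4 and 48.6 and 119 and 74.02 CPM (0.64 ± 0.13, adjusted p = 0.000174), against 37.3, 43.4, 31.7 and 34.3 and 63.5. Pgk1 changed by 0.52 ± 0.11, adjusted p = 0.000228, or 0.35 (adjusted p = 0.0894) with the brain-marker covariate, which for Gpi1 (-0.31 ± 0.08, adjusted p = 0.0024) gave -0.22 (adjusted p = 0.146). Gpi1 was -0.18 (adjusted p = 0.378) with no protocol term.

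The message of the factor itself, Hif1a, was at 90.1, 101 and 101 CPM in Regular and 108 and 128 CPM in Low-input Grn libraries of day 13, against 118, 140.3, 129 and 124 and 212 CPM in Rosa26 libraries (-0.46 ± 0.10, adjusted p = 0.000186). Within each protocol the Grn libraries were the lower, and this was the only call of Hif1a against Rosa26 in the 12 comparisons. Its effect differed between days by -0.44 ± 0.14, adjusted p = 0.0247 and missed without any of 5 of the 20 libraries (up to 0.0873); without Rosa26 day 13 replicates 2 and 5 it was -0.33 (adjusted p = 0.17). Vegfa (-0.81 ± 0.26, adjusted p = 0.014) missed without Grn replicate 5 (adjusted p = 0.0625). Egln1 (-0.30 ± 0.10, adjusted p = 0.023) and Mxi1 (-0.36 ± 0.12, adjusted p = 0.0249) missed without any of 3 and 4 libraries (up to 0.107 and 0.106), and with the brain-marker covariate (adjusted p = 0.225 and 0.418). Aldoc changed by -0.25 ± 0.18, adjusted p = 0.335, and the difference between days was -1.51 ± 0.25, adjusted p = 1.34e-05, or -0.11 (adjusted p = 0.853) with the brain-marker covariate. The 3 members whose effect differed between days compare with 10.3% of all genes (4.74% more positive and 5.6% more negative), so their share was near the background.

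Grn and Trem2 knockouts, both of genes whose loss causes neurodegenerative disease in humans, were set directly against each other. At day 4 they differed in 22 members, 20 higher and 2 lower in Grn, where 15.2% of all genes differed. At day 13 they differed in 21, 17 higher and 4 lower, where 43.5% of all genes differed. Slc16a3 was 2.11 ± 0.19 higher in Grn cells at day 4 (adjusted p = 4.28e-14) and 1.60 ± 0.19 at day 13 (adjusted p = 1.49e-10). Pgam1 was 0.82 ± 0.08 higher at day 4 and 1.38 ± 0.09 at day 13 (adjusted p = 2.58e-21), Ldha 0.92 ± 0.10 and 1.35 ± 0.11, and Hilpda 0.85 ± 0.19 and 2.15 ± 0.19. Hk3 was 0.81 ± 0.15 and 1.87 ± 0.14 higher in Grn cells, and Hk2 was -0.56 ± 0.18 (adjusted p = 0.0212) and -0.69 ± 0.18 (adjusted p = 0.00103), that is, higher in Trem2 cells. At day 4 the Hk2 difference missed without any of 4 libraries (up to 0.0711). Hif1a was lower in Grn cells at day 13 (-0.39 ± 0.10, adjusted p = 0.00122) and not called at day 4 (0.15 ± 0.10, adjusted p = 0.337). These comparisons do not use the Rosa26 means, but Rosa26 libraries enter the fit's protocol term and its estimate of spread. In Low-input libraries alone (2 Grn and 5 Trem2) Pgam1 was 1.36, Ldha 1.29 and Hilpda 2.17 at day 13. With no protocol term Tpi1, Pkm and Gapdh missed at day 13 (adjusted p = 0.226, 0.204 and 0.446), P4ha1 turned to 0.08, and Hk2, Gpi1 and Higd1a missed at day 4 (adjusted p = 0.0828, 0.581 and 0.2).

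Of the remaining groups, Npc1 knockout cells of day 13 had 2 of 35 members called, both higher. Of all genes 4.46% were called (2.71% higher), so the share of members was near the background. Hilpda was at 85.1 and 70.01 CPM in Regular and 101, 83.96 and 115 CPM in Low-input Npc1 libraries, against 47.7, 55.6, 43.01 and 31.4 and 65.6 CPM in Rosa26 libraries (0.73 ± 0.18, adjusted p = 0.00795). Pgam1 was at 493 and 479 and 592, 522 and 637 CPM (0.28 ± 0.09, adjusted p = 0.0411). Within each protocol the Npc1 libraries were the higher for both genes, and without any of 6 libraries Pgam1 missed (up to 0.0996), which left 1 member. It also missed with the brain-marker covariate (0.24, adjusted p = 0.101). The effect of the Npc1 or of the Ctsd knockout differed between days for no member, with 0.2% and 0.00833% of all genes called by edgeR. The numbers of members with an unadjusted p under 0.05 in these 2 tests were 2 and 2, and DESeq2 also called none.

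Control cells themselves changed with time in culture. Between day 4 and day 13 of Rosa26 cells 17 of 35 members were called, 7 higher and 10 lower at day 13, where 30.6% of all genes were called. All 5 lower-glycolysis members were called lower, and the calls of Pgam1 and Pgk1 were lost both with the brain-marker covariate (-0.14 and -0.24, adjusted p = 0.379 and 0.237) and with no protocol term (adjusted p = 0.0613 and 0.199). Brain markers averaged 159 CPM at day 4 and 364 CPM at day 13. At day 13 the Regular libraries had 324 to 525 CPM of them and the Low-input library 140.4 CPM. Gapdh went from 546, 516, 519, 513 and 578 CPM in replicates 1 to 5 of day 4 to 309, 328, 308, 337 and 448 CPM in those of day 13 (-0.68 ± 0.10, adjusted p = 1.25e-07), and Pkm from 498, 475, 500.4, 473 and 492 to 286, 351, 317, 311 and 465 CPM (-0.57 ± 0.09, adjusted p = 2.47e-07). Each library of day 13 was below every library of day 4, and the Low-input replicate 5 was nearest. Ldha was at 637, 575, 510.1 and 509 CPM in the Regular libraries of day 13, all below those of day 4, and at 1081 CPM in the Low-input library (-0.46 ± 0.10, adjusted p = 0.000204). Ldha was -0.27 (adjusted p = 0.114) with the brain-marker covariate and -0.29 (adjusted p = 0.271) with no protocol term. Tpi1 changed by -0.36 ± 0.09, adjusted p = 0.000889, or -0.26 (adjusted p = 0.15) with no protocol term.

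The members that were higher in Rosa26 cells of day 13 included P4ha1, at 53.1, 71.3, 62.3, 70.01 and 49.04 CPM against 35.8 to 46.8 CPM at day 4 (0.70 ± 0.11, adjusted p = 5.24e-07). Hk2 was at 21.1 to 25.3 CPM against 11.5 to 16.3 CPM (0.75 ± 0.18, adjusted p = 0.00059), and Pfkfb3, which raises the activator of phosphofructokinase, at 24.2, 32.9, 30.7, 32.8 and 40.5 against 13.8, 19.8, 17.98, 24.4 and 18.9 CPM (0.72 ± 0.17, adjusted p = 0.000424). For these 3 genes no library of day 13 lay below any of day 4, except 1 pair of Pfkfb3. Aldoc changed by 0.76 ± 0.18, adjusted p = 0.00066, and by -0.07 (adjusted p = 0.83) with the brain-marker covariate, in which the direction turned. Stromal markers summed to 8.41 CPM at day 4 and to 22 to 299 CPM at day 13, with replicates 5 and 2 highest. Without these 2 libraries 11 members were called, and with no protocol term 9. Without the 2 libraries Ndrg1 (-0.35 ± 0.11, adjusted p = 0.0104) was -0.31 (adjusted p = 0.0756). Ndrg1 also missed without replicate 5 alone (adjusted p = 0.0603). Eno1, Gpi1, Egln1, Aldoa and Kdm3a (-0.43, -0.23, 0.28, -0.20 and 0.33) missed without any of 4, 3, 5, 5 and 7 libraries. With the counts of Eno1b added and all libraries kept, Eno1 changed by -0.54 (adjusted p = 5.54e-07).

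Seen by member, Pgam1 was called in 7 of the 12 comparisons with Rosa26, higher in 5 and lower in 2. P4ha1 was called in 5, all higher, none of which passed with no protocol term. Its change was then 0.47 in Grn and 0.35 in Trem2 cells of day 4. At day 13 it was then 0.18 in Atp6v1a, 0.11 in Pik3c3 and -0.08 in Trem2 cells. The 4 members never called were Hk1, Pfkl, Pfkm and Bnip3. Their changes lay within -0.24 to 0.29 for Hk1, -0.45 to 0.57 for Pfkl, -0.33 to 0.24 for Pfkm and -0.06 to 0.34 for Bnip3, and a missed threshold does not show that they did not change.

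Genes of the same pathways outside the list were read from lists of the field. Of 34 tested further hypoxia-response genes 8 were called higher and 6 lower in Trem2 cells of day 4 (41.2%, against 24.3% of all genes), and 8 higher and 5 lower in Atp6v1a cells of day 13 (38.2%, against 24.4%). Plin2, a lipid droplet coat protein, changed by -0.87 ± 0.09 in Trem2 cells of day 4, -1.01 ± 0.10 in Trem2 cells and 0.63 ± 0.09 in Grn cells of day 13. Bhlhe40, a repressor that the factor induces, changed by -1.23 ± 0.27 and -2.27 ± 0.30 in Trem2 cells and by 1.96 ± 0.19 in Atp6v1a cells, and the cytokine Mif by -0.71 ± 0.10 in Trem2 cells of day 4 and 0.84 ± 0.10 in Atp6v1a cells. Rragd, a GTPase of nutrient sensing at the lysosome, changed by 0.68 ± 0.14 in Trem2 cells of day 4 and 1.49 ± 0.13 in Atp6v1a cells, and the oxidoreductase Ero1a by 0.87 ± 0.11 in Atp6v1a cells. All of these passed, with adjusted p of at most 0.000235.

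Of 16 tested regulators of the factor, 3 were called higher and 1 lower in Trem2 cells of day 4 (25%, near the 24.3% of all genes), and 2 higher and none lower in Grn cells of day 4 (12.5%, against 8.04%). Epas1, the related alpha subunit known from vascular cells, changed by 1.46 ± 0.28, adjusted p = 3.03e-05 in Trem2 and 1.49 ± 0.28, adjusted p = 0.000174 in Grn cells of day 4, at 1.77 CPM in Rosa26 and 4.97 CPM in both knockouts. Arnt2, the neuronal partner, changed by 2.17 ± 0.46, adjusted p = 0.000184 and 1.65 ± 0.48, adjusted p = 0.0212. These 2 genes were higher in the groups where the brain markers were higher, and that part was not tested. Arnt, the partner of Hif1a, changed by 0.47 ± 0.16, adjusted p = 0.0245 in Trem2 cells of day 4 and -0.58 ± 0.17, adjusted p = 0.0063 in Grn cells of day 13.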

How the data were processed

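Each of 69 libraries was a QuantSeq library of 3′ tags with unique molecular identifiers, per the labels' protocols. The authors deposited a table of estimated counts per gene. Of its values above 0, 31.2% were fractional and all were rounded here. The submitters' processing notes name Salmon, without a version, and the build GRCm39. The deposited log2 CPM table, made by the authors, served for symbols and as a check, and CPM of the members computed here differed from it by a median of 2.44%. Tests used R 4.3.3 with edgeR 4.0.16 (quasi-likelihood, TMM scaling, filterByExpr by group), limma 3.58.1 and DESeq2 1.42.0. A single fit over all libraries had a mean for each group plus a protocol term, with two-sided tests adjusted over 12008 genes. The SE is the change divided by the root of the test's F. The fit was tested on counts simulated from its own model, protocol term included, with 200 of 12008 genes changed. In the Atp6v1a day 13 comparison it found 82% of 2-fold and 98% of 4-fold changes, with 9 of 189 calls false. In that of Trem2 at day 4 it found 70% and 89%, with 7 of 166 calls false. Such counts cannot show how a misfit of the protocol term would act.

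The members, the other gene lists and the tests were drawn up with earlier results of these data known, although the rule for members reads no measured value. All 36 members are accounted for. Members called against Rosa26 cells of the same day are given with their values. Up to 8 per comparison, those with the smallest adjusted p, are given in every library or as a range. In the other comparisons not every called member is named with its value. Up to 4 called genes per other list and comparison are named, by smallest adjusted p. No library pair of a group agreed within sampling noise (chi-square divided by its degrees of freedom was 1.73 to 72.4). Near-identical copies were sought as 3′ ends of 400 bases aligned over at least 300 bases at 95% identity in GENCODE transcripts of GRCm38, and their counts were summed in an alternative. Other alternatives were DESeq2, DESeq2's size factors, no filter, no protocol term, each protocol alone, a replicate block, a brain-marker covariate and leaving out libraries. Leaving out Rosa26 day 13 replicates 2 and 5 was chosen after seeing the data.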

Additional observations from a re-analysis of the deposited data

Results flagged for a closer look

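In 5 cases 1 library of a group of 5 lay far from the others of its group, measured as log2 CPM with the protocol difference removed. These are among the members given in every library above. Aldoc was at 6.17 and Pdk1 at 5.20 in Pik3c3 day 13 replicate 2, the only Regular library of its group, below the others in both cases. Pgam1 was at 7.72 in Trem2 day 13 replicate 1, the lowest of its group. Ndrg1 was at 5.98 in Rosa26 day 13 replicate 5 and at 6.56 in Atp6v1a day 13 replicate 1, each the lowest of its group. Over all members and groups 21 of 490 values (4.29%) had a library this far apart, and chance gives about 1 in 20.

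The effect of a knockout on a member differed between the 2 days in 16 cases by edgeR's test of the difference itself, given above. In Atp6v1a cells these were Ak4 (1.84), Hk2 (1.06), Slc16a3 (0.94), Pgam1 (0.83), Ndrg1 (0.54), Pgk1 (0.54) and Pfkfb4 (-0.71), as log2 changes of day 13 minus those of day 4. In Pik3c3 cells they were Hk2 (1.10), Pgam1 (0.48) and Gpi1 (-0.39). In Grn cells they were Hilpda (1.20), Hif1a (-0.44) and Aldoc (-1.51), and in Trem2 cells Pgam1 (-0.38), P4ha2 (-1.33) and Aldoc (-1.81). In Pik3c3, Grn and Trem2 cells the share of members was near that of all genes. Day and protocol move together in these tests, since 1 library of day 4 and 21 of day 13 were Low-input; their part in these differences was not tested beyond the fit's term for protocol.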

How the results depend on the processing

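Of 188 calls of members, 186 held with DESeq2, 184 with its size factors, 185 with copies summed, 161 without the filter, 142 with no protocol term and 157 with the brain-marker covariate. With each library left out in turn, 148 of the 188 held every time. Replicate numbers were not used as pairs (the lowest correlation of a same-numbered pair was 0.068 or less in every comparison). By replicate number the median correlation was 0.023 to 0.107 between same-numbered libraries and -0.027 to -0.008 with other numbers. Same-numbered libraries were thus slightly more alike. With the replicate block all 188 calls held, with the same direction. Of 91 calls that use Rosa26 cells of day 13, 69 held without Rosa26 day 13 replicates 2 and 5. Regular libraries alone kept 104 of 145 calls and Low-input libraries alone 56 of 97. At day 13 the first rests on 1 Pik3c3 library and the second on 1 Rosa26 library, assumed to vary like the others, and Regular libraries give no value for Trem2.

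Counts of called members moved by over 1.5 times in these cases. With no protocol term Grn day 4 had 3 and Rosa26 day 13 against day 4 had 9. Low-input libraries alone gave 8 for Atp6v1a, 0 for Npc1, 2 for Pik3c3, 5 for Grn and 10 for Trem2 at day 13. Regular libraries alone gave 0 for Npc1 and 2 for Pik3c3 at day 13, 4 for Atp6v1a against Pik3c3, and 1 for the day difference of Pik3c3. No filter gave 1 for Npc1 and 1 for Ctsd at day 13, and 1 for the day difference of Trem2, which was 7 with the brain-marker covariate and 1 without Rosa26 day 13 replicates 2 and 5. The covariate gave 1 for Npc1 at day 13, and Rosa26 day 13 against day 4 was 11 without those 2 libraries. With each library left out in turn the count ran from 5 to 10 for Grn at day 4, 1 to 3 for Npc1 and 7 to 12 for Pik3c3 at day 13, and 2 to 5 for the day difference of Trem2. Grn day 4 had 5 without Grn replicate 2 or 3, and Pik3c3 day 13 had 7 without Pik3c3 replicate 2. Npc1 day 13 had 1 without Rosa26 replicate 1, 3 or 4 or Npc1 replicate 1, 4 or 5, and the day difference of Trem2 was 5 without Trem2 day 13 replicate 3. The count ran from 25 to 27 for Trem2 at day 4, and at day 13 from 16 to 19 for Trem2, 14 to 17 for Atp6v1a and 9 to 12 for Grn. It ran from 12 to 18 for Rosa26 over time, 19 to 22 for Grn against Trem2 on either day and 16 to 19 for Atp6v1a against Pik3c3. The day difference ran from 6 to 8 for Atp6v1a and 2 to 4 for Pik3c3 and Grn. Comparisons with 0 called stayed at 0 when single libraries were left out.

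The direction turned for Gpi1 in Pik3c3 (0.014), for P4ha1 (-0.082) and Tpi1 (0.005) in Trem2 and for P4ha1 in Grn against Trem2 (0.08), all at day 13 with no protocol term. It turned for Aldoc in Trem2 cells of day 13 in Low-input libraries alone (0.101) and in Rosa26 cells over time with the brain-marker covariate (-0.066). None of these 6 values passed, and the cause was not tested. Depth limits Egln3, P4ha2 and Ak4 most, the members with the lowest median CPM over the groups.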

Other observations

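Of 11 tested genes of the pentose phosphate pathway, which turns glucose phosphate into NADPH and ribose, 3 were called higher in Pik3c3 cells of day 13 (27.3%, against 13.2% of all genes), 1 higher and 3 lower in Trem2 cells of day 4 (36.4%, against 24.3%), and 1 higher and 3 lower in Trem2 cells of day 13 (36.4%, against 22.2%). The transaldolase Taldo1 stood at 730.2 ± 92.3 CPM in Pik3c3 and 287 ± 49.6 CPM in Rosa26 cells of day 13 (SD, n = 5 each), a log2 change of 1.09 ± 0.07, adjusted p = 5.28e-20. Between the lowest Pik3c3 library (567 CPM) and the highest Rosa26 library (373 CPM) there was no overlap. Pgd, which makes NADPH, changed by 0.61 ± 0.09, adjusted p = 4.12e-07 in Pik3c3 cells and -0.46 ± 0.09, adjusted p = 2.58e-05 in Trem2 cells of day 4. The transketolase Tkt changed by -0.75 ± 0.14, adjusted p = 1.5e-05 and -0.89 ± 0.16, adjusted p = 6.47e-06 in Trem2 cells of the 2 days. Of 13 tested genes of pyruvate entry into mitochondria, 5 were called higher and 2 lower in Grn cells of day 13 (53.8%, against 25.2% of all genes), 4 higher and 1 lower in Atp6v1a cells of day 13 (38.5%, against 24.4%), and 3 higher and 2 lower in Trem2 cells of day 4 (38.5%, against 24.3%). The pyruvate carrier subunit Mpc1 changed by 0.78 ± 0.13, adjusted p = 4.33e-06 in Grn cells of day 13, and Pdhb, a subunit of pyruvate dehydrogenase, by 0.71 ± 0.08, adjusted p = 1.05e-11 in Atp6v1a cells of day 13. Pdp1, the phosphatase that reactivates pyruvate dehydrogenase, changed by 0.59 ± 0.12, adjusted p = 0.000151 and 0.71 ± 0.13, adjusted p = 1.9e-05 in Trem2 cells, where its opponent Pdk1 was lower.

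Of 7 tested macrophage genes linked to the factor, 3 were called lower and none higher in Trem2 cells of day 4, 1 higher and 3 lower in Trem2 cells of day 13, and 2 higher and 1 lower in Pik3c3 cells of day 13, where 24.3%, 22.2% and 13.2% of all genes were called. Acod1, the enzyme that makes itaconate, stood at 23.7 ± 4.7 CPM in Pik3c3 and 0.898 ± 0.561 CPM in Rosa26 cells of day 13 (4.67 ± 0.36, adjusted p = 9.12e-17). The gelatinase Mmp9 was lower in Trem2 cells of day 4 (-1.28 ± 0.22, adjusted p = 3.02e-06) and day 13 (-1.75 ± 0.20, adjusted p = 4.68e-11). The chemokine receptor Cxcr4 was higher in Pik3c3 (1.68 ± 0.20, adjusted p = 2.71e-10) and Atp6v1a cells of day 13 (1.42 ± 0.19, adjusted p = 1.14e-08) and lower in Trem2 cells of day 4 (-0.57 ± 0.20, adjusted p = 0.0227). Of 16 tested further genes of glycolysis and gluconeogenesis, 1 was called higher and 1 lower in Atp6v1a cells of day 13, none in Pik3c3 cells of day 13, and 1 higher and none lower in Trem2 cells of day 4, shares of 12.5%, 0% and 6.25% that lie below those of all genes (24.4%, 13.2% and 24.3%). Pck2, the mitochondrial enzyme that turns oxaloacetate into phosphoenolpyruvate, was higher in Atp6v1a cells of day 13 (1.61 ± 0.12, adjusted p = 2.58e-18).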
